A study of Homo sapiens with 24 samples.

Results

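The comparison described here is the difference between RT112 and SCaBER cells in their response to siRNA against FOXA1. It was the change from siControl to siFOXA1 in RT112 minus the same change in SCaBER, and it rested on 8 of the 24 libraries of the series. Both are established human bladder cancer cell lines. RT112 is classified as luminal papillary (LumP) and was grown in RPMI with serum, and SCaBER is classified as basal/squamous (Ba/Sq) and was grown in DMEM with serum. Each of the 4 groups (RT112 siControl, RT112 siFOXA1, SCaBER siControl and SCaBER siFOXA1) held 2 libraries, numbered as experiment batches. Cells of every group were reverse transfected with siRNA in Lipofectamine, and all siFOXA1 libraries carried the FOXA1 siRNA numbered 1 in the labels. All siControl libraries carried the control siRNA numbered 2 in the labels (siCt2), so each change set 1 FOXA1 siRNA against 1 control siRNA. The other 16 libraries also carried a siRNA against ZBED2, with or without siFOXA1. Each subtype was represented by 1 line, and the medium changed with the line, so subtype, medium and line cannot be told apart.

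FOXA1 is a forkhead transcription factor that binds compacted chromatin and opens it for other factors. In the urothelium it acts with GATA3 and PPARγ in luminal differentiation, and it is low in basal/squamous tumours. Interferons are secreted signals that act through STAT2 and other STAT and IRF factors on a large set of antiviral genes, many of which carry an interferon-stimulated response element (ISRE) at the promoter.

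Transcripts were counted by 3′ RNA-seq, in which reads start near the poly-A end, and the 8 libraries held between 4519668 and 5192750 counts. A count of 3 was worth between 0.552 and 0.679 CPM (counts of a gene divided by the scaled library total and set to a common size), and values of 3 counts or fewer are treated as background. Changes are given as log2 fold changes from edgeR (n = 2 libraries per group). The ± value is a standard error worked back from the edgeR F statistic, as the size of the change over the square root of F. The spread behind it was estimated over all 24 libraries. A gene is called where the Benjamini-Hochberg adjusted p over all genes tested is under 0.05. A negative line difference means that the change in RT112 was more negative than that in SCaBER. Nothing states that libraries of a group came from separate cultures other than the batch number, so p-values measure the spread between these libraries. In bulk RNA, fewer expressing cells and less RNA per cell cannot be told apart. The labelled subtypes were checked on siControl means: GATA3 stood at 504 CPM in RT112 and 12.1 CPM in SCaBER, UPK2 at 102 and 3.48 CPM, KRT6A at 6.25 and 974 CPM, and KRT14 at 1.90 and 286 CPM. The basal/squamous markers KRT16 (54.4 and 23.5 CPM) and TP63 (25.2 and 18.7 CPM) had the higher mean in RT112, and the luminal markers KRT20 and UPK3A had 0 counts in the 8 libraries. Of 13 markers of other cell types, PTPRC, MS4A1, LYZ, COL1A2, DCN, HBB and ALB also had 0 counts and CD3E had 1. LUM stood at 134 CPM in RT112 siControl, 69 CPM in RT112 siFOXA1, 13.6 CPM in SCaBER siControl and 26.3 CPM in SCaBER siFOXA1, and COL1A1 at 4.72, 41.3, 6.04 and 13.9 CPM in the same order, while PECAM1, VWF and CDH5 did not exceed 3.76 CPM in any group. Their part in the results was not tested. Transcripts of the mitochondrial genome took 9.73% and 10.74% of counts in SCaBER siControl, 12.93% and 12.52% in SCaBER siFOXA1, 17.78% and 12.16% in RT112 siControl, and 21.45% and 22.73% in RT112 siFOXA1.

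FOXA1 itself (ENSG00000129514) was lowered in both lines from very different levels. It stood at 41.9 and 41.4 CPM in RT112 siControl and at 6.87 and 9.57 CPM in RT112 siFOXA1. In SCaBER it stood at 3.74 and 5.51 CPM (20 and 28 counts) with siControl and at 0.819 and 1.36 CPM (4 and 6 counts) with siFOXA1. The groups did not overlap in either line. FOXA1 fell with a log2 change of -2.34 ± 0.50 in RT112 (edgeR adjusted p = 0.00068) and -2.07 ± 0.68 in SCaBER (adjusted p = 0.039). The line difference was -0.27 ± 0.95 (edgeR adjusted p = 1). That error leaves room for a difference of several fold, and FOXA1 in SCaBER rested on few counts.

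Of 14823 genes tested, 382 (2.58%) were called for the line difference. The change was more positive in RT112 for 173 genes (1.17%) and more negative for 209 (1.41%). The median size of a called difference was log2 1.41 and the smallest 0.60, and for 296 genes the changes in the lines lay at least 2-fold apart. Both lines expressed 338 of the 382 genes at a mean of at least 5 CPM, and 30 genes had a group whose libraries all lay at or below 3 counts. By the change in each line, 33 genes were called in both lines in opposite directions, 223 were called in RT112 and not in SCaBER, 82 in SCaBER and not in RT112, 36 in both in the same direction, and 8 in neither. Alone, the knock-down changed 1569 genes upward (10.6%) and 1591 downward (10.7%) in RT112, against 955 (6.44%) and 913 (6.16%) in SCaBER. Genes called in a single line were mostly not called for the line difference itself: 223 of 2012 for RT112 and 82 of 720 for SCaBER. With the replicate block (batch number within line) 597 genes were called, without RT112 siFOXA1 replicate 2 199 and without RT112 siControl replicate 2 241. The 33 genes of opposite direction became 13 without RT112 siControl replicate 2, 18 without RT112 siFOXA1 replicate 2, 15 without SCaBER siFOXA1 replicate 2, and 19 and 20 without SCaBER siControl replicate 1 and 2. Without transcripts of the mitochondrial genome, whose share moved with the groups, 402 were called, 34 of them in opposite directions.

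**Figure D1:**
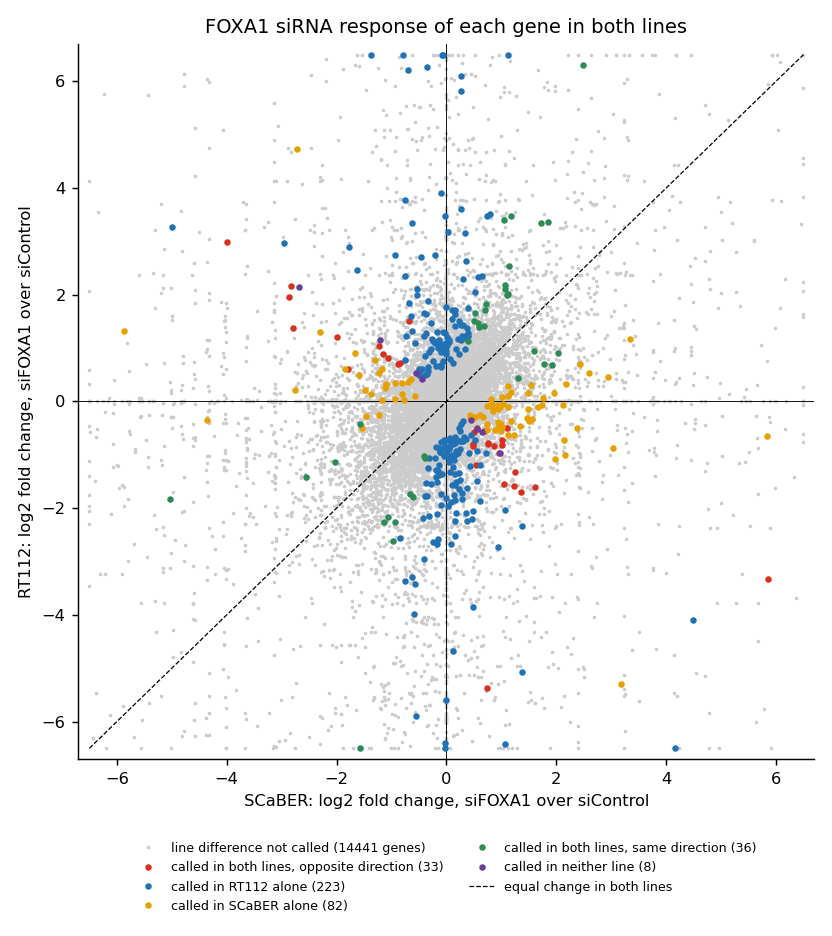
Each point is a gene tested, with its log2 change from siControl to siFOXA1 in SCaBER on the horizontal axis and in RT112 on the vertical axis (edgeR, 2 libraries per group, values beyond the axes drawn at their edge). Coloured points are the 382 genes called for the line difference, by class, and the 33 genes of opposite direction lie in the upper left (13 genes) and lower right (20 genes) quadrants.

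Genes that moved in opposite directions came first, since here the lines differed in sign and not only in size. In RT112 13 of the 33 rose and 20 fell, and each did the reverse in SCaBER. The 10 with the smallest p that were measured in both lines were SAMD9, TM4SF1, APMAP, TOX2, TXNIP, ABCC5, NEDD9, PMEPA1, ACSL3 and S100A9. All 10 remained called for the line difference under each of 16 alternative settings. That holds for the difference and not for the opposite class itself. Limma on log2(TPM + 1) placed 17 genes in that class, 8 of them among the 33.

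SAMD9 (ENSG00000205413, chr7:93099518-93117979 on GRCh38), an interferon-responsive cytoplasmic factor that restricts poxviruses, had the smallest p of the opposite genes. It stood at 161 and 198 CPM in SCaBER siControl and at 366 and 473 CPM in SCaBER siFOXA1. In RT112 it went the other way, from 247 and 256 CPM to 100.2 and 67.0 CPM. RT112 was thus the higher line with siControl and SCaBER the higher line with siFOXA1, with no overlap between groups. The changes were log2 -1.59 ± 0.20 in RT112 and 1.23 ± 0.19 in SCaBER, and the line difference was -2.81 ± 0.28 (edgeR adjusted p = 6.08e-08). SAMD9 was the member of the interferon list that fell in RT112.

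TXNIP (ENSG00000265972, chr1:145992435-145996579), a thioredoxin-binding protein that restrains glucose uptake, fell from 477 and 501 CPM to 228 and 201 CPM in RT112. In SCaBER it rose from 56.7 and 58.7 CPM to 80.0 and 88.7 CPM. The groups of the lines did not overlap at all, and the line difference was -1.74 ± 0.21 (edgeR adjusted p = 4.12e-06). NEDD9 (ENSG00000111859, chr6:11183298-11382348), a scaffold protein of focal adhesions, followed the same direction. It fell from 154 and 148 CPM to 60.4 and 59.6 CPM in RT112 and rose from 14.0 and 12.4 CPM to 31.7 and 31.5 CPM in SCaBER (line difference -2.58 ± 0.36, edgeR adjusted p = 3.73e-05). Its pairs of libraries lay close together in every group. PMEPA1 (ENSG00000124225, chr20:57648396-57711472), a membrane protein that dampens SMAD signalling, fell in RT112 from 481 and 467 CPM to 370.2 and 302 CPM and rose in SCaBER from 44.3 and 54.4 CPM to 121 and 90.7 CPM (line difference -1.60 ± 0.24). ACSL3 (ENSG00000123983, chr2:222861036-222944639), a long-chain acyl-CoA synthetase, moved less: from 273 and 286 CPM to 183 and 139.7 CPM in RT112, and from 196 and 215 CPM to 279 and 292 CPM in SCaBER (line difference -1.27 ± 0.19, edgeR adjusted p = 1.08e-04).

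The reverse pattern, a rise in RT112 and a fall in SCaBER, was found for the other 5. TM4SF1 (ENSG00000169908, chr3:149369022-149377649), a 4-pass membrane protein found on many carcinoma cells, rose from 133 and 122 CPM to 214 and 233 CPM in RT112. In SCaBER it fell from 303 and 293 CPM to 133 and 153 CPM. The lines thus exchanged their order, SCaBER being higher before and RT112 after the knock-down, and the line difference was 1.87 ± 0.22 (edgeR adjusted p = 1.49e-06). TOX2 (ENSG00000124191, chr20:43914852-44069616), an HMG-box nuclear factor, also exchanged order: it rose from 119 and 131 CPM to 185 and 196 CPM in RT112 and fell from 229 and 212 CPM to 63.5 and 63.6 CPM in SCaBER (2.40 ± 0.29, edgeR adjusted p = 3.66e-06). APMAP (ENSG00000101474, chr20:24962925-24992751), a plasma membrane protein first described in adipocytes, rose from 179.9 and 200.1 CPM to 309 and 317 CPM in RT112 and fell from 218 and 239 CPM to 125 and 129 CPM in SCaBER (1.56 ± 0.19). Here too SCaBER was higher before and RT112 after the knock-down. ABCC5 (ENSG00000114770, chr3:183919934-184017884), an efflux transporter of cyclic nucleotides, rose from 159 and 124 CPM to 394 and 406 CPM in RT112, while in SCaBER it stood at 67.4 and 53.2 CPM before and 43.2 and 31.7 CPM after (2.19 ± 0.29). S100A9 (ENSG00000163220, chr1:153357854-153361023), a calcium-binding subunit of calprotectin and a squamous marker, rose from 494 and 382 CPM to 1032 and 768 CPM in RT112. In SCaBER, the Ba/Sq line, it fell from 164 and 123 CPM to 70.8 and 52.0 CPM (2.26 ± 0.35, edgeR adjusted p = 1.22e-04). S100A9 was therefore higher in RT112 than in SCaBER in all 8 libraries.

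**Figure D2:**
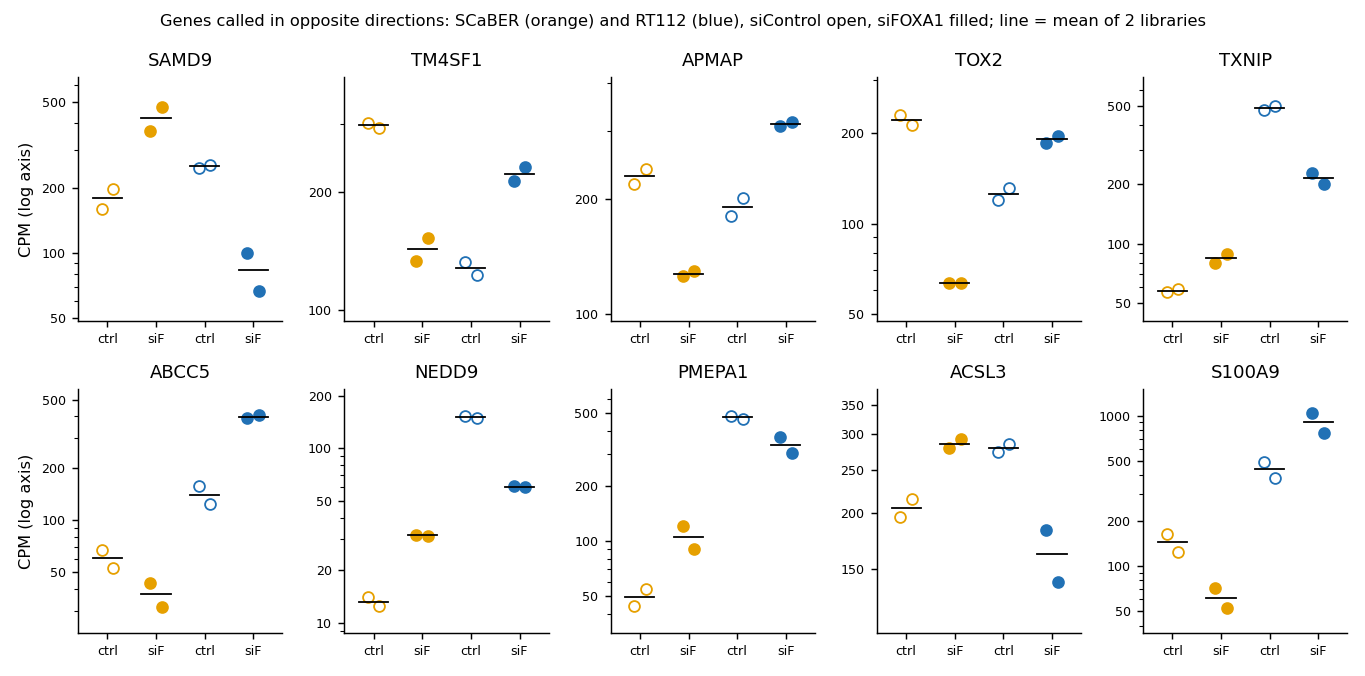
CPM on a log axis for the 10 genes of opposite direction with the smallest p, a panel each, with every library drawn as a point and group means as bars, for siControl and siFOXA1 in SCaBER and in RT112. SAMD9, TXNIP, NEDD9, PMEPA1 and ACSL3 go down in RT112 and up in SCaBER, and TM4SF1, APMAP, TOX2, ABCC5 and S100A9 go up in RT112 and down in SCaBER.

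Among the remaining opposite genes, JUNB, an AP-1 subunit, fell in RT112 from 115 and 122 CPM to 75.4 and 86.8 CPM and rose in SCaBER from 101 and 105 CPM to 169 and 164 CPM (line difference -1.24 ± 0.21, edgeR adjusted p = 0.00055). The related subunit JUND rose in both lines, with the larger change in RT112 (line difference 1.00 ± 0.23), so the sign of the line difference was reversed between them. KRT86 passed as well, but it is nearly identical to KRT81, and reads can be split between them, so its value is uncertain. SPRY1, an inhibitor of receptor tyrosine kinase signalling, had 16 and 1 counts in RT112 siControl, 77 and 61 in RT112 siFOXA1, 40 and 18 in SCaBER siControl, and 1 and 2 in SCaBER siFOXA1. Its direction was opposite (edgeR adjusted p = 0.002), while no fold is given for SCaBER because both siFOXA1 libraries lay below 3 counts.

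Of the opposite genes, TXNIP and JUNB had the forkhead core TGTTTAC, on either strand, within the 300 bases around the start site (250 before to 50 after) that RefSeq gives on GRCh38.p14. That was 2 of the 29 opposite genes with a promoter sequence (6.9%), beside 2.33% of 10268 promoters of tested genes. Among genes called for the line difference, it was 4 of 59 (6.78%) for those called in SCaBER and not in RT112. For those called in RT112 and not in SCaBER it was 8 of 172 (4.65%), and for those of the same direction 0 of 30. The share was thus not particular to the opposite genes. The 250 bases before each start are shown in the direction of transcription, with the core in capitals (on the minus strand of the TXNIP window, where it reads GTAAACA), for chr1:145996580-145996829 (TXNIP, minus strand) and chr19:12791236-12791485 (JUNB, plus strand). Both genes fell in RT112 and rose in SCaBER, while GDF15, which also holds the core, rose in RT112 and was not called in SCaBER. A match is a description of these letters and not a site shown to be bound.
TXNIP: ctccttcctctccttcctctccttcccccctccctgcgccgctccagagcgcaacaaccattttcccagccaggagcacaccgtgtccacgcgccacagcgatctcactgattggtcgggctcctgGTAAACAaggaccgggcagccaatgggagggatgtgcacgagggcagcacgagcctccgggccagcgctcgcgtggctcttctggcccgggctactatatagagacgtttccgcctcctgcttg
JUNB: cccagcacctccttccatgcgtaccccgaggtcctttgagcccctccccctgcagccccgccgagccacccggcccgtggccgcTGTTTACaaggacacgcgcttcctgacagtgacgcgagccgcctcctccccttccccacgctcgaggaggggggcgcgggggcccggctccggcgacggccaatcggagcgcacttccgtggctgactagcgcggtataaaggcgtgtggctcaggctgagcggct

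Genes called in RT112 and not in SCaBER formed the largest class, 107 of which rose and 116 of which fell in RT112. CLU (ENSG00000120885), a secreted chaperone, had the smallest p for the line difference of all genes. It rose from 26.2 and 28.5 CPM to 273 and 339 CPM in RT112. In SCaBER it stood at 64.9 and 51.6 CPM with siControl and at 62.0 and 53 CPM with siFOXA1, overlapping groups with a change of -0.02 ± 0.18. The line difference was 3.50 ± 0.27 (edgeR adjusted p = 2.15e-10). KRT81 (ENSG00000205426), a type II hair keratin, rose in RT112 from 7.86 and 12.3 CPM to 138 and 169.9 CPM, and in SCaBER stood much higher and overlapped, at 1126 and 938 CPM before and 1017 and 907 CPM after (4.01 ± 0.39). Reads shared with KRT86 make its exact level uncertain. KRT80, another type II keratin of stratified epithelia, rose from 100.02 and 105 CPM to 291 and 385 CPM in RT112, beside 220.02 and 216 CPM before and 241 and 243 CPM after in SCaBER (1.57 ± 0.20). SAT1, which acetylates polyamines for their breakdown, rose from 151 and 99.0 CPM to 355 and 421 CPM in RT112, while in SCaBER it stood at 145 and 141 CPM before and 107 and 114 CPM after (2.01 ± 0.28). Both keratins were lower in RT112 than in SCaBER with siControl, and siFOXA1 took KRT80 above its SCaBER levels and left KRT81 below them.

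Of the genes that fell in RT112 and were not called in SCaBER, AFAP1L2, an actin-binding adaptor, went from 22.3 and 17.7 CPM to 1.21 and 1.52 CPM (6 and 7 counts). In SCaBER it stood at 47.3 and 54.5 CPM before and 75.7 and 67.2 CPM after, and the line difference was -4.33 ± 0.49 (edgeR adjusted p = 1.01e-06). FERMT1, an activator of integrins, fell from 250.5 and 279 CPM to 88.5 and 70.1 CPM in RT112, beside 428 and 409 CPM before and 376 and 401 CPM after in SCaBER (-1.63 ± 0.20). DDIT4, a stress-induced inhibitor of mTORC1, fell from 410.1 and 343 CPM to 106 and 67.0 CPM in RT112 and differed little in SCaBER, at 79.9 and 88.4 CPM before and 65.1 and 83.7 CPM after (-1.94 ± 0.27). The knock-down thus took DDIT4 in RT112 from well above the SCaBER levels to about those levels. S100A2, a calcium-binding protein of basal epithelium, fell from 278 and 344 CPM to 176 and 158 CPM in RT112, beside 1079.5 and 1276 CPM before and 1438 and 1347 CPM after in SCaBER (-1.13 ± 0.18).

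Of the 82 genes called in SCaBER and not in RT112, 55 rose and 27 fell. KRT17 (ENSG00000128422), a keratin of basal and injured epithelium, rose from 897 and 793 CPM to 2473 and 2303 CPM in SCaBER. In RT112 it stood at 629 and 773 CPM with siControl and 564 and 523 CPM with siFOXA1, a change of -0.37 ± 0.14 that did not pass (edgeR adjusted p = 0.052). The line difference was -1.87 ± 0.19 (edgeR adjusted p = 1.81e-07). LAMB3, a chain of the basement membrane protein laminin-332, rose from 254 and 262 CPM to 760.4 and 877 CPM in SCaBER, while in RT112 it stood at 44.3 and 67.6 CPM before and 51.5 and 53.3 CPM after (-1.77 ± 0.26). CDKN1A, which encodes the CDK inhibitor p21, rose from 63.8 and 57.1 CPM to 231 and 237 CPM in SCaBER and overlapped in RT112, at 45 and 44 CPM before and 40.2 and 59.4 CPM after (-1.79 ± 0.29, edgeR adjusted p = 0.00022). These 3 genes rose in SCaBER, the line with the lower FOXA1 level, and none passed in RT112 (adjusted p by edgeR of 0.052 or more).

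HCFC1, a chromatin coregulator, fell in SCaBER from 190.5 and 158 CPM to 90.1 and 72.6 CPM and stood at 173 and 153 CPM before and 189.9 and 217 CPM after in RT112 (line difference 1.42 ± 0.23). PRAG1, a pseudokinase, fell from 46.6 and 58.5 CPM to 15.4 and 13.8 CPM in SCaBER (2.45 ± 0.45), and its RT112 libraries ranged from 20.3 to 41.4 CPM. DKK1, a secreted inhibitor of Wnt signalling, fell from 124 and 186 CPM to 51.4 and 80.6 CPM (1.77 ± 0.38). DKK1 missed the threshold in limma on log2(TPM + 1), at adjusted p = 0.0666. None of these 3 passed in RT112, where the smallest edgeR adjusted p of them was 0.16 (HCFC1).

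In 36 genes both lines moved in the same direction and by different amounts, 27 with the larger change in RT112 and 9 in SCaBER. MAP2, a microtubule-associated protein of neurons, rose in RT112 from 1.53 and 0.368 CPM (7 and 2 counts) to 59.8 and 88.1 CPM. In SCaBER it rose from 12.2 and 15.8 CPM to 75.5 and 81.2 CPM. The lines reached like levels from different starting points (line difference 3.82 ± 0.54, edgeR adjusted p = 3.73e-05). ANKRD1, a nuclear ankyrin-repeat protein induced by YAP, rose from 9.39 and 8.65 CPM to 98.8 and 92.9 CPM in RT112 and from 78.6 and 92.4 CPM to 168 and 183 CPM in SCaBER (2.37 ± 0.35). SLC17A5, the lysosomal exporter of sialic acid, started at like levels, 16.2 and 28 CPM in RT112 and 19.5 and 16.1 CPM in SCaBER, and reached 225 and 269 CPM in RT112 but 42.8 and 38 CPM in SCaBER (2.29 ± 0.35). TMCC1, a membrane protein of the endoplasmic reticulum, changed more in SCaBER: it rose from 34.4 and 41 CPM to 159 and 150.5 CPM there and from 105 and 109 CPM to 189.7 and 209 CPM in RT112 (-1.14 ± 0.22). ALDH1A3, a retinaldehyde dehydrogenase, fell from 87.2 and 65.2 CPM to 27.2 and 24.0 CPM in SCaBER and from 320.2 and 367 CPM to 254 and 257 CPM in RT112 (1.14 ± 0.24, edgeR adjusted p = 0.0043). Without SCaBER siControl replicate 1 its line difference was 0.91 (edgeR adjusted p = 0.0557). IGFBP3, a secreted binder of insulin-like growth factors, fell with log2 changes of -2.56 ± 0.20 in SCaBER and -1.42 ± 0.18 in RT112. Its line difference of 1.14 ± 0.26 became 0.92 without SCaBER siFOXA1 replicate 1 and 0.75 without RT112 siFOXA1 replicate 1 (edgeR adjusted p = 0.0698 and 0.0764).

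Some called genes were counted mainly in 1 line. ANKRD33B had 0 and 0 counts in RT112 siControl and 24 and 9 in RT112 siFOXA1, beside 183 and 191 counts before and 83 and 108 after in SCaBER (edgeR adjusted p = 0.00012 for the line difference). ITPR1, an intracellular calcium channel, went from 54 and 98 counts to 1 and 3 in RT112 and stood at 4 and 18 before and 28 and 24 after in SCaBER (adjusted p = 0.00082). ASS1, the enzyme of arginine synthesis, rose from 3.28 and 5.52 CPM to 34.8 and 24.8 CPM in RT112 and stood between 2.87 and 7.86 CPM in SCaBER (3.68 ± 0.66, edgeR adjusted p = 0.00096). No fold is given for ANKRD33B and ITPR1 because a whole group of RT112 libraries lay at or below 3 counts.

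Of 57 interferon effector genes tested, 51 rose and 0 fell in SCaBER, where 6.44% of all genes rose. In RT112, where 10.6% of all genes rose, 33 rose, 1 (SAMD9) fell and the other 23 were not called. Of the 57 genes 18 were called as rising in SCaBER and not in RT112. The line difference was called in 9 (15.8%, beside 2.58% of all genes), in each case more positive in SCaBER. Over the list, the difference was negative for 40 members and positive for 17, with a median of -0.50 beside 0 for all genes (-0.54 without the 4 members that had a group at or below 3 counts). Within replicate number 1 the median was -0.28 and within replicate number 2 it was -0.81. It was -0.09 without RT112 siFOXA1 replicate 2, -0.23 without SCaBER siFOXA1 replicate 2, -0.33 without SCaBER siControl replicate 1 and -0.85 without RT112 siFOXA1 replicate 1, and it was negative in every scaling tried (-0.50 to -0.85). The 9 were SAMD9, SAMD9L, GBP1, OAS1, OAS3, PLSCR1, SAMHD1, SP100 and USP18.

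GBP1 (ENSG00000117228, chr1:89052319-89065208), an interferon-induced GTPase that attacks intracellular pathogens, rose from 161 and 133 CPM to 453 and 542 CPM in SCaBER. In RT112 its groups overlapped, at 55.7 and 70.9 CPM before and 63.9 and 68.3 CPM after. The line difference was -1.70 ± 0.24 (edgeR adjusted p = 3.73e-05). OAS1, which makes the second messenger that activates RNase L, rose from 19.1 and 27.6 CPM to 136 and 224 CPM in SCaBER, and in RT112 stood at 50.2 and 44.9 CPM before and 77.8 and 52.7 CPM after (-2.49 ± 0.46, edgeR adjusted p = 0.0016). OAS3, of the same enzyme family, rose from 104 and 127 CPM to 359 and 411 CPM in SCaBER and ranged from 35.2 to 65.9 CPM in RT112 (-1.80 ± 0.37). SAMD9L, the neighbour and paralog of SAMD9, rose from 34.4 and 31.5 CPM to 121 and 175 CPM in SCaBER and went from 46.3 and 41.1 CPM to 58.2 and 50.7 CPM in RT112 (-1.85 ± 0.35). SAMD9L was not called in RT112 (change 0.32 ± 0.25), so the fall there was measured for SAMD9 and not for its paralog. PLSCR1, SAMHD1, SP100 and USP18 had line differences between -1.06 and -2.17. The calls of SAMHD1 and SP100 were lost in 4 of the 8 fits that left out 1 library, and that of USP18 in 5.

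Other interferon effectors showed no called difference. MX1, a GTPase that traps viral capsids, rose by log2 3.39 in SCaBER and 1.53 in RT112, with a line difference of -1.87 ± 0.66 (edgeR adjusted p = 0.135). ISG15, the ubiquitin-like modifier, differed by -0.46 ± 0.52. IFIT3 and IFITM3 lay on the other side, at 1.53 ± 0.57 (adjusted p = 0.163) and 1.15 ± 0.40 (adjusted p = 0.131). STAT2, a factor upstream of these effectors, differed by -0.68 ± 0.37 and was not called either (edgeR adjusted p = 0.397). Among 32 receptors, STAT and IRF factors and sensors 1 was called (3.12%, near the 2.58% of all genes). It was the kinase JAK1, which fell from 116 and 114 CPM to 51.9 and 63.1 CPM in RT112 and stood between 107 and 130.1 CPM in SCaBER (-1.02 ± 0.23, edgeR adjusted p = 0.010). The call of JAK1 was lost in 3 of the 8 fits that left out 1 library.

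The promoters of SAMD9 and GBP1 are shown because they differ in what their genes did in RT112 (a fall and no called change) while both genes rose in SCaBER. Each holds an ISRE core (GAAANNGAA on either strand), in capitals: on the plus strand of the SAMD9 window (chr7:93117980-93118229, gene on the minus strand) and on the opposite strand of the GBP1 window (chr1:89065209-89065458, gene on the minus strand). Sequences are from RefSeq on GRCh38.p14, 250 bases before the start site in the direction of transcription.
SAMD9: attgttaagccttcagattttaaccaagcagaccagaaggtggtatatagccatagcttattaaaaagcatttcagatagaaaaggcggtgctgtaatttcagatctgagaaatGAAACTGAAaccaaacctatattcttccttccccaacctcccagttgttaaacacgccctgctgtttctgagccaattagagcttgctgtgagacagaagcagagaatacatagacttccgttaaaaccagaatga
GBP1: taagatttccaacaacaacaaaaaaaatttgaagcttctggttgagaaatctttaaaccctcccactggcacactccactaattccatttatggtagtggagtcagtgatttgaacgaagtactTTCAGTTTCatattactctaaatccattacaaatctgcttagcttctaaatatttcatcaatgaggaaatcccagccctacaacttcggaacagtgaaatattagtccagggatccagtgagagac
Of the 9 interferon effectors called for the line difference, 8 had a promoter sequence and 4 of these held the core (50%). Among the effectors that were not called it was 26 of 37 (70.3%), and among all promoters of tested genes 6.34%. In the genes called for the line difference that rose in SCaBER and were not called in RT112, a set that includes GBP1, it was 8 of 45 (17.8%).

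Immune surface genes differed in single members. Of 18 genes of MHC class I presentation 2 were called (11.1%, beside 2.58% of all genes). NLRC5, the transactivator of these genes, had 0 and 0 counts in RT112 siControl and 17 and 29 in RT112 siFOXA1, beside 101 and 98 counts before and 193 and 195 after in SCaBER (edgeR adjusted p = 0.011). Its call was lost in 2 of the 8 fits without 1 library. HLA-B was also called with 0 and 0 counts in RT112 siControl, but it shares sequence with other HLA genes, its call was lost in 5 of the 8 fits without 1 library, and its value is uncertain. Among 13 checkpoint and adhesion ligands 3 were called (23.1%, beside 2.58% of all genes). VTCN1, an inhibitory ligand of the B7 family, rose from 24 and 23 to 215 and 222 counts in RT112 and had 1 and 7 counts before and 0 and 0 after in SCaBER (edgeR adjusted p = 0.012), and it was not called without SCaBER siControl replicate 2 (adjusted p = 0.406). TNFSF10, the death ligand TRAIL, rose in SCaBER from 109.6 and 96.5 CPM to 218 and 363 CPM and stood between 33.6 and 47.7 CPM in RT112 (-1.33 ± 0.34), a call lost in 4 of the 8 fits without 1 library. CD276, another B7 ligand, fell in RT112 from 39.7 and 36.8 CPM to 11.3 and 15.7 CPM (-1.34 ± 0.35), and its call was lost in 7 of the 8. CD274, which encodes PD-L1, rose in both lines, by 3.22 ± 0.65 in RT112 and 2.67 ± 0.57 in SCaBER, a difference of 0.55 ± 0.83 (edgeR adjusted p = 0.863).

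The NF-kB genes called for the line difference mostly went the other way. Of 33 members tested, 12 rose and 2 fell in RT112, where 10.6% and 10.7% of all genes did. In SCaBER 3 rose and 2 fell, beside 6.44% and 6.16% of all genes. The line difference was called in 5 (15.2%, beside 2.58% of all genes), with RT112 more positive in 4. BIRC3, an inhibitor of apoptosis and NF-kB target, rose from 2.62 and 1.84 CPM (12 and 10 counts) to 17.8 and 21.8 CPM in RT112, and in SCaBER stood at 393 and 315 CPM before and 429 and 463 CPM after (line difference 2.82 ± 0.39, edgeR adjusted p = 3.02e-05). RELB, a subunit of the non-canonical pathway, rose from 1.53 and 1.10 CPM (7 and 6 counts) to 13.3 and 19.1 CPM in RT112 and overlapped in SCaBER, between 43.4 and 72.7 CPM (3.35 ± 0.54, edgeR adjusted p = 0.00024). Both were thus low in RT112 siControl and remained well below SCaBER after the knock-down. TNIP1, which restrains the pathway, fell in RT112 from 82.3 and 77.0 CPM to 40 and 43.7 CPM and stood between 224 and 271 CPM in SCaBER (-1.10 ± 0.22). TNFAIP3, the deubiquitinase A20, differed by 1.76 ± 0.46, a value that ranged from 0.93 (without RT112 siControl replicate 2, adjusted p by edgeR of 0.325) to 3.42 (without RT112 siControl replicate 1) when 1 library was left out. It was not called by DESeq2 (adjusted p = 0.115) or in the 8 libraries alone (edgeR adjusted p = 0.0875). The call of NFKBIA (0.60 ± 0.17) was lost in 8 of 8 fits without 1 library. The median line difference of the list was 0.37 (0.36 without 10 members with a group at or below 3 counts), 0.47 within replicate number 1 and 0.29 within number 2. It was 0.57 without RT112 siControl replicate 1, 0.58 without SCaBER siFOXA1 replicate 2, and 0.06 in limma on log2(TPM + 1), where the median of all genes moved by -0.13.

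**Figure D3:**
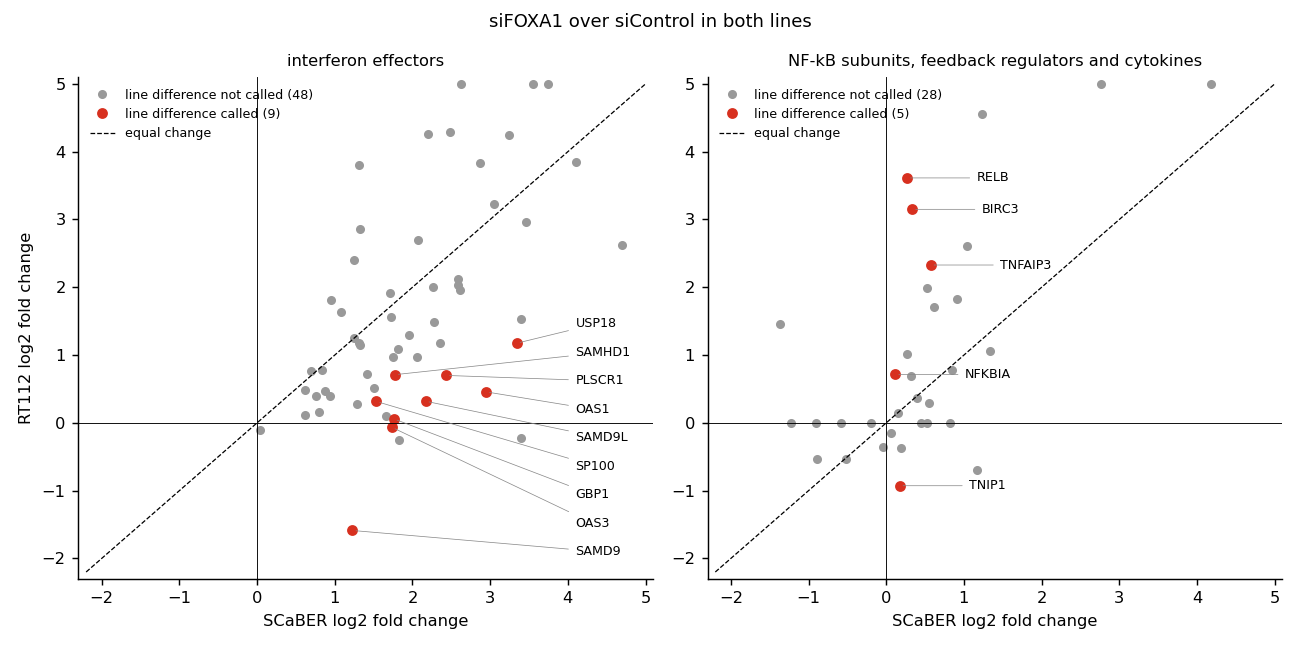
Each point is a member of the interferon effector list (57 genes) or the NF-kB list (33 genes), with its log2 change in SCaBER on the horizontal axis and in RT112 on the vertical axis, and the diagonal marks equal change (values beyond the axes drawn at their edge). The 9 called interferon genes lie below the diagonal, with SAMD9 well below zero in RT112 (-1.59), and 4 of the 5 called NF-kB genes lie above it.

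Genes of mitosis fell in both lines, 45 of 50 in RT112 and 37 of 50 in SCaBER, beside 10.7% and 6.16% of all genes. The difference was negative for 45 of the 50, beside 7376 of all 14823 genes. The median change was -1.74 in RT112 and -1.24 in SCaBER, and the median line difference -0.48 (-0.31 within replicate number 1 and -0.89 within number 2). The median was -0.18 without RT112 siFOXA1 replicate 2, -0.31 without SCaBER siFOXA1 replicate 1 and -0.98 without RT112 siFOXA1 replicate 1. In 3 genes (6.0%, beside 2.58% of all genes) the difference was called. CCNB1, the mitotic cyclin B1, fell from 177 and 199.7 CPM to 50.5 and 33.5 CPM in RT112 and from 183 and 188 CPM to 79.8 and 98.4 CPM in SCaBER (-1.10 ± 0.24, edgeR adjusted p = 0.0081), and was not called without RT112 siFOXA1 replicate 2 (-0.83, adjusted p = 0.112) or without SCaBER siFOXA1 replicate 2 (-0.95, adjusted p = 0.056). DLGAP5 and HMMR, both of the mitotic spindle, differed by -1.33 ± 0.35 and -1.13 ± 0.31, and each lost its call in 5 of the 8 fits without 1 library. DNA replication genes did not show this in the 8 libraries: 26 of 44 fell in RT112 and 24 of 44 in SCaBER. For the line difference 0 were called by edgeR and 0 by DESeq2, with 1 at an unadjusted p under 0.05. The median was 0.01, with opposite values in the replicate numbers (0.36 and -0.36).

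**Figure D4:**
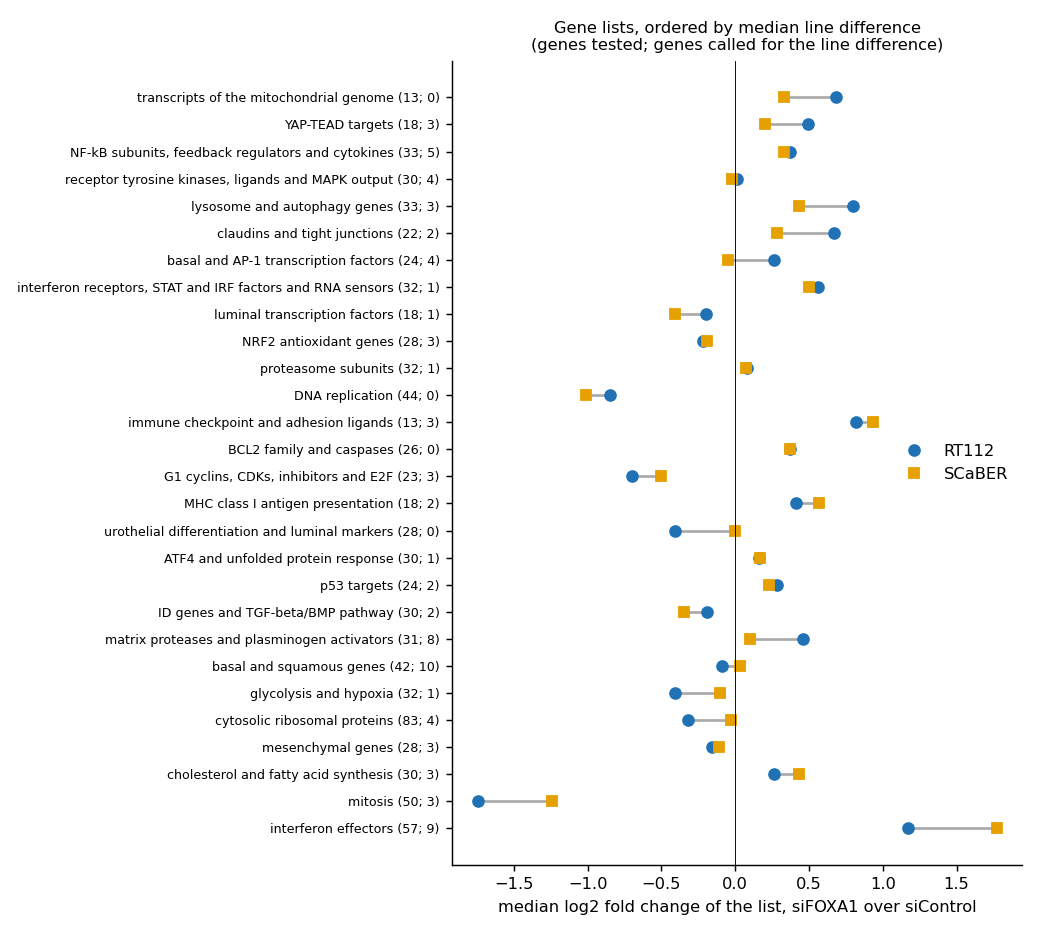
Median log2 change from siControl to siFOXA1 of each gene list, in RT112 (circles) and in SCaBER (squares). Names carry the numbers of genes tested and called for the line difference, and lists are ordered by median line difference. Interferon effectors lie at 1.17 in RT112 and 1.77 in SCaBER, and mitosis at -1.74 and -1.24. In the same order, NF-kB genes lie at 0.37 and 0.33, YAP-TEAD targets at 0.49 and 0.20, and DNA replication at -0.85 and -1.01.

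Basal and squamous genes did not move one way. Of 42 tested 10 were called (23.8%, beside 2.58%), 5 more positive in RT112 and 5 in SCaBER. More positive in RT112 were KRT81, KRT80, S100A9, EGFR and KRT5, and more positive in SCaBER were KRT17, LAMB3, S100A2, COL17A1 and ITGB4, the last 2 being, with LAMB3, parts of the hemidesmosome and its anchorage. EGFR rose in RT112 from 79.9 and 72.0 CPM to 158 and 151 CPM and stood between 288 and 352 CPM in SCaBER (1.05 ± 0.20, edgeR adjusted p = 0.0019). KRT5, the basal keratin, was called for the line difference (0.85 ± 0.23) and in neither line alone, and its call was lost in 6 of the 8 fits without 1 library. COL17A1 and ITGB4 each lost theirs in 5. The luminal lists held 1 called gene, KLF4, of 18 luminal transcription factors (5.56%, beside 2.58% of all genes). It rose from 1.31 and 1.29 CPM (6 and 7 counts) to 6.47 and 10.0 CPM in RT112 and stood between 50.1 and 94.1 CPM in SCaBER (2.28 ± 0.49, edgeR adjusted p = 0.0065). KLF4 was not called without RT112 siControl replicate 2 (adjusted p = 0.0555) or RT112 siFOXA1 replicate 2 (0.0712). GATA3, the luminal partner of FOXA1, fell in RT112 (-0.88) and was not called in SCaBER (-0.23), and the difference itself was -0.64 ± 0.26 (edgeR adjusted p = 0.219). Of 28 differentiation and luminal markers 0 were called by edgeR for the line difference, 3 by DESeq2, and 6 had an unadjusted p under 0.05.

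Matrix proteases and plasminogen activators were called in 8 of 31 (25.8%, beside 2.58% of all genes), 7 of them more positive in RT112. CPA4, a carboxypeptidase, rose in both lines, from 36.5 and 26.1 CPM to 297 and 338 CPM in RT112 and from 48.6 and 49.2 CPM to 155 and 168 CPM in SCaBER (1.63 ± 0.26, edgeR adjusted p = 0.00019). TIMP2, an inhibitor of matrix metalloproteinases, rose from 78.2 and 82.1 CPM to 219 and 238 CPM in RT112 and stood between 119.9 and 154 CPM in SCaBER (1.28 ± 0.22). PLAU, the urokinase activator, rose from 12.4 and 11.4 CPM to 36.6 and 44.6 CPM in RT112 and ranged from 139 to 231 CPM in SCaBER (1.77 ± 0.40). PLAU was lost in 1 of the 8 fits without 1 library. KLK5, KLK6 and KLK10, kallikreins of squamous epithelium, were called with RT112 more positive: KLK5 had 4 and 3 counts before and 187 and 202 after in RT112, and 6, 7, 6 and 8 counts in the SCaBER libraries. KLK10 was called in neither line alone, and its call was lost in 6 of the 8 fits without 1 library, in the 8 libraries alone and in limma on log2(TPM + 1). The list's median difference was -0.17, and 0.38 without 9 members with a group at or below 3 counts, so the sign of the median rested on members near background.

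YAP-TEAD targets were called in 3 of 18 (16.7%, beside 2.58% of all genes), all more positive in RT112. They were ANKRD1, AMOTL2 and CYR61, a secreted matrix protein. AMOTL2, a scaffold that binds YAP, rose from 64.4 and 63.9 CPM to 201 and 202 CPM in RT112 and from 139 and 154 CPM to 192 and 228 CPM in SCaBER, so that the lines met at like levels (1.14 ± 0.23, edgeR adjusted p = 0.004). CYR61 lost its call in 4 of the 8 fits without 1 library. The median of the list was 0.44, beside 0.29 without RT112 siFOXA1 replicate 1 and 0.23 in limma on log2(TPM + 1). Lysosome and autophagy genes had 18 of 33 rising in RT112 and 10 in SCaBER, beside 10.6% and 6.44% of all genes. Their line difference was called in 3 (9.09%), all more positive in RT112: SLC17A5, SQSTM1 and TFEB. SQSTM1 and TFEB lost the call in 4 and 5 of the 8 fits. In cholesterol and fatty acid synthesis 3 of 30 were called (10.0%), all more negative in RT112. FDPS, which makes farnesyl diphosphate, rose from 223 and 232 CPM to 549.8 and 575 CPM in SCaBER and from 153 and 144 CPM to 202 and 199 CPM in RT112 (-0.87 ± 0.20, edgeR adjusted p = 0.013). SCD, the stearoyl-CoA desaturase, fell in RT112 from 631 and 817 CPM to 419.7 and 419.9 CPM and stood between 309.6 and 423 CPM in SCaBER (-0.95 ± 0.22). The calls of FDPS and SCD were lost in 2 and 3 of the 8 fits. GDF15, a stress-induced cytokine on the list of p53 targets, rose in RT112 from 11.4 and 6.63 CPM to 60.8 and 56.8 CPM and stood between 5.43 and 10.4 CPM in SCaBER (3.17 ± 0.62), while CDKN1A of the same list rose in SCaBER and was not called in RT112. INHBA, which forms activin A, rose in SCaBER from 107 and 82.5 CPM to 438 and 390.1 CPM and stood between 3.48 and 8.28 CPM in RT112 (-2.18 ± 0.55). Its call was lost without RT112 siControl replicate 2 or RT112 siFOXA1 replicate 2.

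Of the cytosolic ribosomal proteins, 33 of 83 fell in RT112, and 8 fell and 4 rose in SCaBER. Over all genes 10.7% fell in RT112, and 6.16% fell and 6.44% rose in SCaBER. The median line difference was -0.27 (-0.22 and -0.29 within the replicate numbers), with 79 of 83 members negative and 4 called (4.82%, beside 2.58% of all genes): RPS27A, RPS12, RPS6 and RPL14. RPS12, RPS6 and RPL14 lost the call in 3, 4 and 5 of the 8 fits without 1 library, and limma on log2(TPM + 1) called 0 of the 83, beside 13 by DESeq2. Ribosomal protein genes have many processed pseudogenes that can take their reads, so single values are uncertain. Transcripts of the mitochondrial genome rose in RT112 for 9 of 13 and in SCaBER for 1 of 13, beside 10.6% and 6.44% of all genes. Of these transcripts 0 were called for the line difference by edgeR or by DESeq2, with 6 at an unadjusted p under 0.05. Their median difference was 0.64, made up of 0.01 within replicate number 1 and 1.14 within number 2. It was 0.31 without RT112 siControl replicate 2 and 1.00 without RT112 siControl replicate 1. Without a ZBED2 siRNA, the larger rise in RT112 was thus measured in 1 replicate number only. In the libraries with a ZBED2 siRNA, the median line difference of these transcripts was 0.67. There 4 of the 13 were called as more positive in RT112 and 0 as more negative. Leaving these transcripts out, as given above, removed only their own part in the library totals and the scaling. Any other part of this shift in the calls of other genes was not tested.

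Of 23 G1 regulators 3 were called (13%, beside 2.58% of all genes), all more negative in RT112: CDKN1A, given above, and the cyclin CCND3 and the CDK inhibitor CDKN2C, which fell in RT112 and lost the call in 6 of the 8 fits without 1 library each. Of 24 basal and AP-1 transcription factors 4 were called (16.7%). Besides JUNB and JUND these were HMGA1, an architectural chromatin protein that fell in RT112 from 767 and 757 CPM to 402 and 333 CPM and stood between 885 and 1162 CPM in SCaBER (-0.84 ± 0.18), and SOX2, which was counted almost only in SCaBER, where it fell from 96 and 157 to 15 and 19 counts. In RT112 SOX2 had 6 counts in siFOXA1 replicate 2 and 0 in the other libraries, and without that library its line difference was not called (edgeR adjusted p = 1). The call of SOX2 was lost in 4 of the 8 fits without 1 library, that of JUND in 3 and that of HMGA1 in 1 (-0.71, adjusted p = 0.0611, without RT112 siFOXA1 replicate 2). Of 28 mesenchymal genes 3 were called (10.7%). FN1, fibronectin, rose in SCaBER from 34 and 34.7 CPM to 92.1 and 97.5 CPM and stood between 36.5 and 68.8 CPM in RT112 (-1.78 ± 0.43), TGFBI, a matrix adhesion protein, rose in RT112 from 73.8 and 89.5 CPM to 135 and 175 CPM (1.23 ± 0.24), and CAV2 fell in RT112 and lost its call in 6 of the 8 fits. The call of FN1 was lost in 2 of the 8. Of 30 receptor tyrosine kinase and MAPK genes 4 were called (13.3%), among them EGFR, SPRY1 and EREG, an EGFR ligand with 0 and 0 counts in RT112 siControl and 6 and 10 in RT112 siFOXA1. The call of EREG was lost in 3 of the 8 fits. INHBA and PMEPA1 were the called members of 30 TGF-β and BMP pathway genes (6.67%, beside 2.58% of all genes).

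Metabolic and stress lists held 6 further called genes, of which EBP belongs to the 3 called in cholesterol and fatty acid synthesis. The NRF2 list had 3 of 28 called (10.7%, with SQSTM1 given above), beside 2.58% of all genes. Near that share were glycolysis and hypoxia (1 of 32, 3.12%), ATF4 and unfolded protein response (1 of 30, 3.33%) and proteasome subunits (1 of 32, 3.12%). ABCC3, an efflux transporter of conjugates on the NRF2 list, rose in RT112 from 51.8 and 60.8 CPM to 129 and 149 CPM and stood between 58.3 and 85.3 CPM in SCaBER (1.47 ± 0.30, edgeR adjusted p = 0.004). NDRG1, a hypoxia-responsive gene, fell in RT112 from 141 and 173 CPM to 61.6 and 46.1 CPM and stood between 97.1 and 129.6 CPM in SCaBER (-1.25 ± 0.26). AKR1C1 fell in RT112 from 708 and 1163 to 278 and 213 counts, with a value made uncertain by its near-identical paralogs. Its line difference of -2.0 became -0.69 without SCaBER siFOXA1 replicate 1 (edgeR adjusted p = 0.684), and the call was lost in 4 of the 8 fits without 1 library. The others, with smaller differences, were the chaperone HSP90B1 (-0.67 ± 0.16), the proteasome subunit PSMD2 (-0.73 ± 0.17) and the sterol isomerase EBP (-1.16 ± 0.31), whose calls were lost in 2, 4 and 7 of the 8 fits without 1 library, respectively. Of 22 tight junction genes TJP1 and CLDN1 were called (9.09%, beside 2.58% of all genes), with opposite signs, and lost the call in 6 and 7 of the 8. Of 26 BCL2 family genes and caspases 0 were called for the line difference by edgeR or DESeq2, with 2 at an unadjusted p under 0.05.

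In the 16 libraries with a ZBED2 siRNA, none of which entered the difference above, the same line difference was computed for adding siFOXA1 to siZBED2, as a mean over both ZBED2 siRNAs. Here 440 of 14823 genes (2.97%) were called for the line difference, and adding siFOXA1 changed 2759 genes (18.6%) in RT112 and 915 (6.17%) in SCaBER. Of the 382 genes, 364 (95.3%) had the same sign as without the ZBED2 siRNA and 137 (35.9%) were called with that sign, beside 62.7% and 2.1% for genes not called. The other 18 had the other sign, of which 0 were called by edgeR, 0 had an unadjusted p under 0.05 and 0 were called by DESeq2. The differences were smaller, with a median size of 0.64 against 1.41, the 382 genes having been chosen on the latter. Of the 33 opposite genes, 26 kept their direction in both lines, and 6 were called in both lines with it.

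By gene, the line difference of SAMD9 with a ZBED2 siRNA was -1.58 (edgeR adjusted p = 3.88e-06), of TM4SF1 1.35, of TOX2 1.54, of ABCC5 1.29, of NEDD9 -1.13, of ACSL3 -1.04, of S100A9 1.73, of CLU 2.17, of KRT81 2.79 and of KRT17 -1.24, each called and of the same sign. The difference of APMAP was 0.45 there, of the same sign, and was not called (adjusted p = 0.0511). TXNIP behaved differently: with a ZBED2 siRNA it fell in both lines, with log2 changes of -1.39 in RT112 and -0.89 in SCaBER, and its line difference of -0.50 was not called (adjusted p = 0.058). PMEPA1 had a line difference of 0.01 there and was not called. The median of the interferon effectors was -0.11, with 6 members called as more positive in RT112 and 5 as more negative, so the direction seen without a ZBED2 siRNA was not shared by the list. For mitosis the median was -0.71 and 18 of 50 members were called, all more negative in RT112. DNA replication genes had a median of -0.43 there, with 5 of 44 called, also all more negative in RT112. YAP-TEAD targets had a median of -0.02, with 1 member called as more positive in RT112 and 2 as more negative. NF-kB genes had a median of 0.25, with 2 members called in each direction. Called members of the YAP-TEAD and NF-kB lists thus did not lean to RT112 there. Other lists leaned either way. Matrix proteases and plasminogen activators had 5 members called as more positive in RT112 and 0 as more negative, and lysosome and autophagy genes 4 and 0. Cholesterol and fatty acid synthesis had 0 and 4, and cytosolic ribosomal proteins 0 and 3. ZBED2 itself stood at 22.1 and 16.9 CPM in RT112 siControl and 5.46 and 1.52 CPM in RT112 siFOXA1, while in SCaBER it stayed between 18.9 and 20.5 CPM. It fell in RT112 (-2.46 ± 0.68, edgeR adjusted p = 0.0075), and the line difference of -2.53 ± 0.90 was not called (adjusted p = 0.143). It was called by DESeq2 (-2.54, adjusted p = 0.0378) and by edgeR without RT112 siFOXA1 replicate 1 (-3.71, adjusted p = 0.0377).

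**Figure D5:**
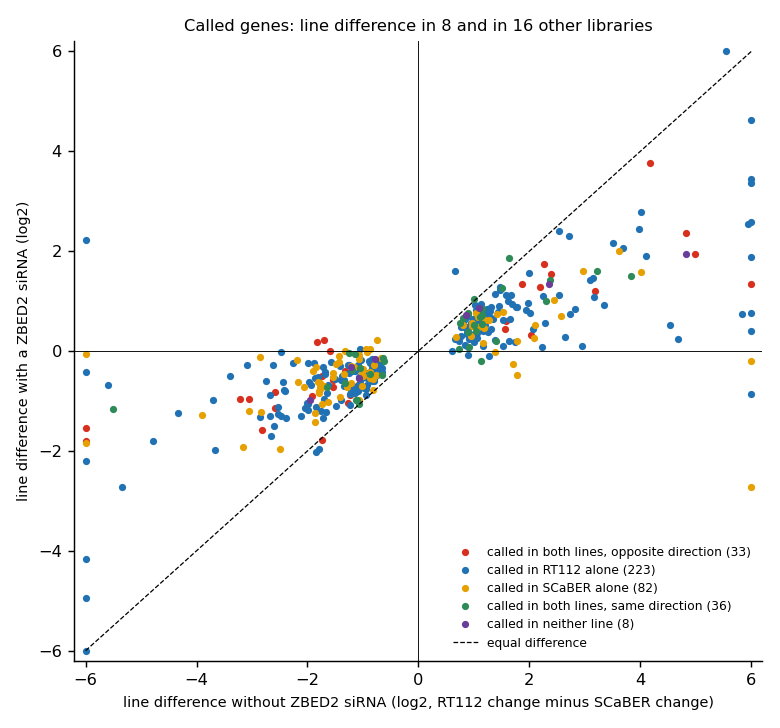
Log2 line difference of each of the 382 called genes in the 8 libraries without a ZBED2 siRNA (horizontal axis) and in the 16 libraries with one (vertical axis), values beyond the axes drawn at their edge. Points in the upper right and lower left quadrants, 364 of 382, have the same sign in both.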

How the data were processed

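Libraries were 3′ RNA-seq (QuantSeq FWD). Sample labels gave groups and replicate numbers. Raw counts of whole reads for each gene were deposited by the authors. Their pipeline configuration lists raw-qc 2.1.0, TrimGalore 0.6.2 (minimum quality 20, minimum length 10), single-end alignment with STAR 2.6.1a to hg38 and STAR counts on GENCODE 29 with automatic detection of strand. In the methods of the study hg19 is given instead, and hg38 was followed because it stands in the deposited configuration. The authors also deposited TPM values, divided by gene length and scaled to a common total, which suits 3′ reads poorly, so they were used in 1 alternative. The tool that made them is not given in the sources used here.

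From the counts, genes were kept with edgeR's filterByExpr (minimum count 10, minimum total 15), which left 14823 of 58721 genes, 34121 having no count in any library. A mean per group was fitted to all 24 libraries with TMM scaling and edgeR 4.0.16 (R 4.3.3) quasi-likelihood F-tests, with Benjamini-Hochberg adjustment over all genes tested (threshold 0.05) for each contrast. The design shared 1 estimate of the spread because each group held 2 libraries (biological coefficient of variation 24.5%). CPM values use TMM library sizes. The script was tested on simulated counts. Depth gives a floor of 3 counts, which covers counting error only. Coordinates (1-based) and promoters came from RefSeq on GRCh38.p14. Coordinates were matched by Ensembl identifier, or by symbol where that was missing, and promoters by symbol.

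A replicate number is an experiment batch in the labels, and the main fit held no term for it, so libraries were not paired there. Deviations of equal-numbered siControl and siFOXA1 libraries from their group means correlated at 0.001 in RT112 and 0.038 in SCaBER. The replicate block, which pairs libraries of a line with the same number, was an alternative, since the study states no such term. Other alternatives were DESeq2 1.42.0, other scalings, no filter, the 8 libraries alone, limma 3.58.1 on log2(TPM + 1) and leaving out each library. Leaving out transcripts of the mitochondrial genome was added after seeing the data.

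The members and gene lists were chosen with earlier results of these data known, so counts over lists describe and do not test. Genes were named by smallest p within each class of response, plus up to 3 called members per list; some genes that this rule takes are not reported here. KRT86, MX1, ISG15, IFIT3, IFITM3, GATA3, other called members of lists given beyond 3, and all promoters shown were picked after their values were seen.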

Additional observations from a re-analysis of the deposited data

Results flagged for a closer look

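The effect of siFOXA1 differed between RT112 and SCaBER by the test of the difference itself (edgeR, adjusted p under 0.05) in 382 genes, and 33 of these were called in opposite directions in the lines. For the 10 genes of opposite direction given in full, the log2 line difference (RT112 change minus SCaBER change) was -2.81 for SAMD9, 1.87 for TM4SF1, 1.56 for APMAP, 2.40 for TOX2, -1.74 for TXNIP, 2.19 for ABCC5, -2.58 for NEDD9, -1.60 for PMEPA1, -1.27 for ACSL3 and 2.26 for S100A9. No group held more than 2 libraries, so no library was tested for standing apart from its group.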

How the results depend on the processing

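Against 382 genes called for the line difference and 33 of opposite direction, the 8 libraries fitted alone gave 250 and 31, DESeq2 845 and 55, and limma on log2(TPM + 1) 251 and 17. DESeq2 called 831 genes, in place of 440, for the line difference with a ZBED2 siRNA. With the replicate block 597 genes were called, including 381 of the 382, and it changed no call of the 100 called genes followed here. Leaving out 1 library gave between 199 and 565 genes for the line difference and between 13 and 28 of opposite direction. Without a filter on low counts 549 of 24600 genes were called. In limma on TPM 28.3% of calls were more positive in RT112, beside 45.3% with edgeR, and the median of all genes moved by -0.13. RLE and library size scaling gave 385 and 367 calls, and 32 and 22 genes of opposite direction (32 and 18 of them shared with the 33). Of the 100 called genes followed over 16 alternatives, 99 kept their direction in all and 44 passed in all. The signs that turned were those of NLRC5 (-0.08) and CD274 (-0.29) in limma on TPM, and of FOXA1, whose uncalled line difference ranged from -0.59 to 0.12 when 1 library was left out (0.12 without SCaBER siFOXA1 replicate 2). The cause of these shifts was not tested. Depth limits FOXA1 in SCaBER (4 to 28 counts a library) and the 30 called genes with a group at or below 3 counts.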
